A study of Mus musculus with 8 samples.

Results

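The genes described here are 9 visceral and autonomic neuron identity genes, namely Phox2a, Hand1, Hand2, Th, Dbh, Slc6a2, Hmx1, Hmx2 and Hmx3, chosen by symbol among the 38355 genes counted in each library. They were read in 4 KO libraries and 4 WT libraries of mouse embryos of the C57Bl6 strain at E11.5. The KO embryos were Prdm12-/-, lacking a zinc-finger transcription factor that developing somatosensory neurons use, and the WT embryos carried the wild-type gene. Each library was made from total RNA of thoracic dorsal root ganglia, the paired sensory ganglia of the trunk, dissected with the adjoining spinal cord. The labels do not say which part of Prdm12 was removed, or whether a library held 1 embryo or several, and the p-values therefore measure the spread between these libraries, which may be technical. The study's design text speaks of 3 replicates, and 4 libraries per group were analysed here. The question asked of the 9 genes was whether KO libraries gained them over WT libraries.

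Autonomic neurons control the viscera, and most sympathetic neurons release noradrenaline. In crest-derived sympathetic precursors the homeodomain factor Phox2a and the basic helix-loop-helix factors Hand1 and Hand2 act upstream of the noradrenaline genes. Tyrosine hydroxylase (Th) makes the catecholamine precursor L-DOPA, dopamine beta-hydroxylase (Dbh) turns dopamine into noradrenaline, and the transporter encoded by Slc6a2 takes noradrenaline back up into the cell. Hmx1, Hmx2 and Hmx3 encode homeodomain proteins. Hmx1 is expressed in sensory and sympathetic ganglia, while Hmx2 and Hmx3 are best known from the developing inner ear and hypothalamus. Several of these genes have other sites in the tissue sampled. Phox2a also marks a class of dorsal spinal projection neurons, and the Hand genes are active in lateral mesoderm.

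Total counts lay between 23088908 and 27567399 in the KO libraries and between 25490087 and 67782435 in the WT libraries, the highest being WT replicate 1. Values below are CPM, that is read counts divided by the library total in units of 1000000 after scaling by trimmed mean of M-values, and 1 CPM stood for 22.9 to 27.7 counts in KO libraries and 25.5 to 67.3 counts in WT libraries. Prdm12 lay between 0.962 and 1.55 CPM in KO libraries and between 22.2 and 39.6 CPM in WT libraries, in accord with the labels. Among all 16068 genes tested, 9 passed as higher in KO and 39 as lower. Markers of spinal cord (summed level 316 to 344 CPM in KO libraries and 322 to 353 CPM in WT libraries, 10 of 10 genes tested) and of ganglion glia and crest (618 to 780 CPM in KO libraries and 681 to 800 CPM in WT libraries, 8 of 8 genes tested) were present in every library.

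All 9 genes passed the filter on low counts, and none passed the test between groups. With edgeR's quasi-likelihood test and Benjamini-Hochberg adjustment over all genes, 0 of 9 were higher and 0 of 9 were lower in KO, where 0.056% of all tested genes were called higher and 0.243% lower. Hand1, Hand2, Dbh, Slc6a2 and Phox2a had log2 fold changes (KO over WT) above 0, and Th, Hmx1, Hmx2 and Hmx3 had values below 0. The median over the 9 was 0.002, and that of all tested genes was −0.003. Values of both signs offset each other in that median. Regardless of sign, the median log2 fold change was 0.59 for the 9 (median SE 0.24) and 0.061 for all tested genes. The 9 were not matched in level to all tested genes, and this contrast was not tested. At an unadjusted p under 0.05, 2 were higher (Hand1 and Hand2) and 2 lower (Hmx2 and Hmx3), while 3.03% of all tested genes were higher and 3.32% lower at that level (6.35% in all). DESeq2 and limma-voom likewise called 0 of the 9 in either direction. In such mixed tissue, fewer cells of a type and less RNA per cell cannot be told apart.

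**Figure D1:**
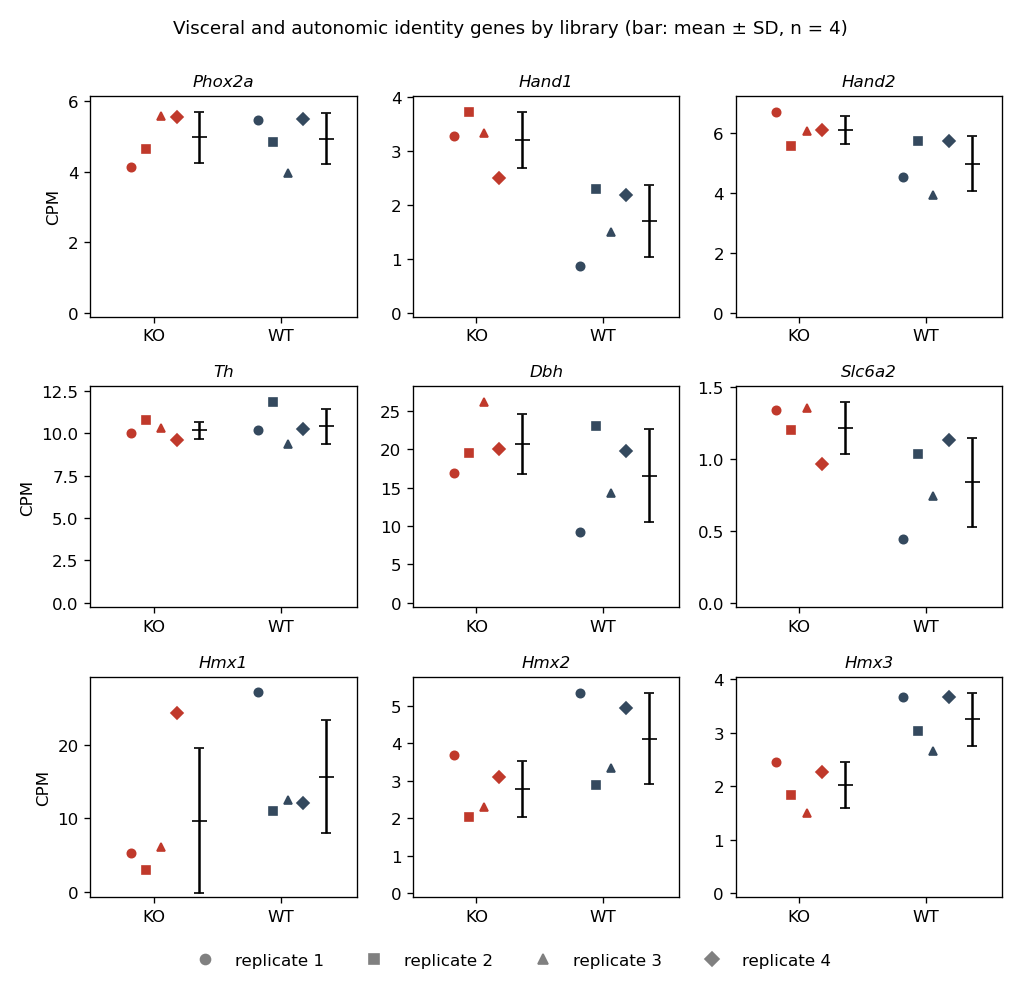
CPM of the 9 genes in each KO and WT library, with 1 symbol for each replicate number and a bar for the mean ± SD (n = 4 per group). KO points lie above all WT points only for Hand1 and below all WT points only for Hmx3, and the other 7 genes overlap between groups, where 4.14% of all tested genes do not overlap.

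Phox2a (ENSMUSG00000007946, mm10 chromosome 7, 101818313 to 101822726, plus strand) had nearly equal means in the groups. It stood at 4.12, 4.64, 5.59 and 5.55 CPM in KO replicates 1 to 4, and at 5.47, 4.83, 3.96 and 5.49 CPM in WT replicates 1 to 4. Each group held low and high libraries, and the ranges covered nearly the same span. The means were 4.98 ± 0.719 CPM in KO libraries and 4.94 ± 0.721 CPM in WT libraries (SD, n = 4 each). The log2 fold change was 0.002 with a 95% interval of −0.31 to 0.31 (adjusted p = 0.999), so the interval reached from 0.809-fold to 1.24-fold. These values rest on 114 to 149 counts per KO library and 101 to 368 per WT library. Its 3′ end shares 95 exonic bases with Inppl1 on the other strand, and reads there cannot be told apart without strand.

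Hand1 (ENSMUSG00000037335, chromosome 11, 57828705 to 57832818, minus strand) had the highest log2 fold change of the 9. It stood at 3.29, 3.72, 3.34 and 2.49 CPM in KO replicates 1 to 4, against 0.862, 2.29, 1.49 and 2.18 CPM in WT replicates 1 to 4. Every KO library lay above every WT library, a separation in this direction that 1.69% of all tested genes showed. The means were 3.21 ± 0.517 CPM in KO libraries and 1.71 ± 0.665 CPM in WT libraries (SD, n = 4 each), on 57 to 93 counts per KO library and 38 to 62 per WT library. The log2 fold change of 0.97 (SE 0.28, 95% interval 0.35 to 1.58) did not pass over all genes (adjusted p = 0.440). A two-sided exact permutation test of Hand1 CPM over the 70 assignments of 4 and 4 libraries gave p = 0.0286, the smallest it can give and unadjusted for the 9 genes so tested. WT replicate 1 had the lowest value of the 8 libraries, and without it the log2 fold change was 0.70 (adjusted p = 0.192).

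Hand2 (ENSMUSG00000038193, chromosome 8, 57320983 to 57324633, plus strand) showed a smaller difference of the same sign. Its level was 6.72, 5.56, 6.07 and 6.12 CPM in KO replicates 1 to 4 and 4.53, 5.76, 3.92 and 5.74 CPM in WT replicates 1 to 4. KO replicate 2 lay below WT replicates 2 and 4, so the groups overlapped. Mean levels were 6.12 ± 0.472 CPM in KO libraries and 4.99 ± 0.914 CPM in WT libraries (SD, n = 4 each), with a log2 fold change of 0.30 (SE 0.13, edgeR adjusted p = 0.775). Hand2 shares 461 exonic bases with Hand2os1 on the other strand, a non-coding gene not analysed here, and reads of this stretch may belong to either. The ratio of Hand2 to Hand1 CPM was 1.49 to 2.46 in KO libraries and 2.52 to 5.26 in WT libraries, with WT replicate 1 at the high end. This ratio contains the Hand1 difference described above and is no separate result.

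None of the noradrenaline genes passed. Th (ENSMUSG00000000214, chromosome 7, 142892752 to 142931128, minus strand) stood at 10.04, 10.8, 10.3 and 9.62 CPM in KO replicates 1 to 4 and at 10.2, 11.8, 9.37 and 10.2 CPM in WT replicates 1 to 4. The lowest and the highest value both belonged to WT libraries. The log2 fold change of Th was −0.03 (SE 0.09, edgeR adjusted p = 0.981), with a 95% interval from 0.860-fold to 1.12-fold, the narrowest of the 9.

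Dbh (ENSMUSG00000000889, chromosome 2, 27165233 to 27183200, plus strand) varied more between libraries. It had 16.8, 19.5, 26.1 and 20.1 CPM in KO replicates 1 to 4 and 9.24, 22.99, 14.2 and 19.8 CPM in WT replicates 1 to 4. WT replicate 1 was lowest and KO replicate 3 highest, and the other values were mixed. Means of 20.6 ± 3.91 CPM in KO libraries and 16.6 ± 6.08 CPM in WT libraries (SD, n = 4 each) gave a log2 fold change of 0.33 (SE 0.28, edgeR adjusted p = 0.926), which was 0.12 without WT replicate 1. Within a library, Dbh was 1.68 to 2.53 times Th in KO libraries and 0.907 to 1.94 times Th in WT libraries.

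Slc6a2 (ENSMUSG00000055368, chromosome 8, 92960079 to 93001667, plus strand) was the least abundant. It was at 1.34, 1.20, 1.35 and 0.962 CPM in KO replicates 1 to 4 and at 0.446, 1.03, 0.745 and 1.13 CPM in WT replicates 1 to 4, from 22 to 37 counts per KO library and 19 to 32 per WT library. KO replicate 4 lay below WT replicates 2 and 4. The log2 fold change of 0.61 (SE 0.28, edgeR adjusted p = 0.793) had a 95% interval of −0.01 to 1.23 and was 0.33 without WT replicate 1. For Hand1, Dbh and Slc6a2 alike, WT replicate 1 held the lowest of the 8 values.

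Promoter windows of RefSeq (GRCm38.p6), the 250 bases before the annotated start, were at hand for 7 of the 9 genes. They are shown for Hand2, Th and Dbh, to set a Hand factor gene beside the gene pair whose levels differed in how much they varied between libraries. Capitals mark matches on either strand to CAAGTG, the core letters bound by Hmx-type homeodomains, to TAATTA, a homeodomain core, and to TGACG, part of the cAMP response element.
Hand2, chr8:57320733-57320982, plus strand: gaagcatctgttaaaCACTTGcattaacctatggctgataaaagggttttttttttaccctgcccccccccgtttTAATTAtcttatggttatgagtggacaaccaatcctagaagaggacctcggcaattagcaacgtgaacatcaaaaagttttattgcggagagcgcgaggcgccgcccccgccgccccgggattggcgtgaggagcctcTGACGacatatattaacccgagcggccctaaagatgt
Th, chr7:142899996-142900245, minus strand: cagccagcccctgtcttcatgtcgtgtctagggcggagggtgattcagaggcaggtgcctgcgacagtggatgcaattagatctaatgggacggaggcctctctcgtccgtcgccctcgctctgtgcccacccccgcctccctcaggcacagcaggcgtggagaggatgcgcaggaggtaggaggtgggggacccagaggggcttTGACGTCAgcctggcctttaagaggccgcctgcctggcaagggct
Dbh, chr2:27165257-27165506, plus strand: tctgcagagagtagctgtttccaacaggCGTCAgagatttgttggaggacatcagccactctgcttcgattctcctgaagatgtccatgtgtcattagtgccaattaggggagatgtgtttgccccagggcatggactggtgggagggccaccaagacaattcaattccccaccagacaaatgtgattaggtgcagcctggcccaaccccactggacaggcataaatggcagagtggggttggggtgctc

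The Th window held 2 overlapping TGACG matches, starting 45 and 42 bases before the start, which together spell TGACGTCA. The Dbh window held 1 match to TGACG, 222 bases before the start, and the Hand2 window 1, at 37 bases. Of 32851 promoter windows of this length, 17.8% held TGACG. The letters CAAGTG were found in 11.6% of all windows and, among the 7 genes, in that of Hand2 alone. The homeodomain core TAATTA was found in 4.84% of all windows and again, among the 7 genes, in that of Hand2 alone. The E-box CANNTG, which takes in every CAAGTG and is not in capitals, had 2 matches each in the Hand2 and Dbh windows and 1 each in those of Th, Hmx1 and the more upstream of the Hmx2 starts, and 66.2% of all windows held it. The Phox2a, Hmx1, Hmx2 and Hmx3 windows held 0 matches to the 3 motifs shown in capitals. These matches describe letters in the window and say nothing of binding.

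**Figure D2:**
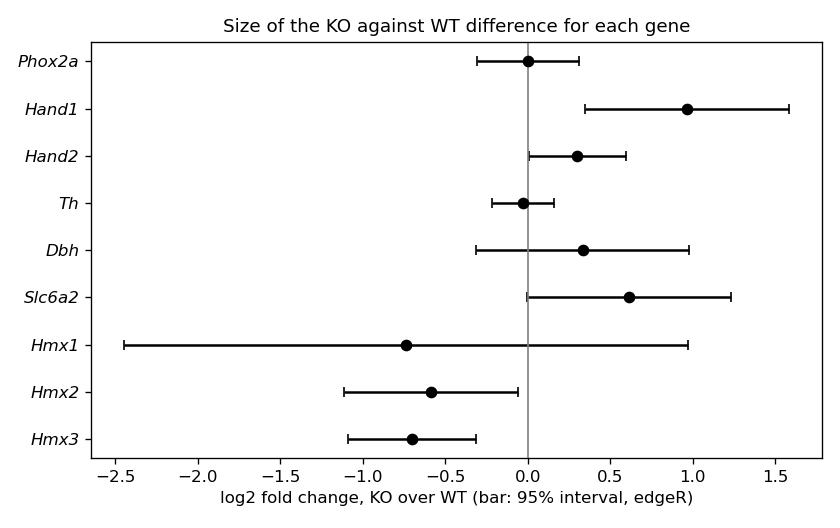
Log2 fold change (KO over WT) of each gene with its 95% interval from edgeR. The interval lies above 0 for Hand1 and Hand2 and below 0 for Hmx2 and Hmx3 without adjustment, and it is narrowest for Th and widest for Hmx1 (−2.45 to 0.97).

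The Hmx genes had log2 fold changes below 0, and none of the 3 passed. Hmx3 (ENSMUSG00000040148, chromosome 7, 131542867 to 131544925, plus strand) had 2.46, 1.84, 1.4996 and 2.27 CPM in KO replicates 1 to 4 and 3.67, 3.03, 2.67 and 3.66 CPM in WT replicates 1 to 4. Every KO library was below every WT library, as for 2.45% of all tested genes. The means were 2.02 ± 0.431 CPM in KO libraries and 3.26 ± 0.496 CPM in WT libraries (SD, n = 4 each), from 40 to 68 counts per KO library and 68 to 247 per WT library. The log2 fold change was −0.70 (SE 0.18, 95% interval −1.09 to −0.31, adjusted p = 0.290), which ranked 115 of 16068 genes by p. The exact permutation p was 0.0286.

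Hmx2 (ENSMUSG00000050100, chromosome 7, 131548773 to 131558014, plus strand) lies 3848 bp from Hmx3 on the same strand. Its level was 3.68, 2.04, 2.29 and 3.10 CPM in KO replicates 1 to 4 and 5.35, 2.88, 3.33 and 4.93 CPM in WT replicates 1 to 4. KO replicates 1 and 4 were above WT replicate 2, so the groups overlapped. Mean levels of 2.78 ± 0.755 CPM in KO libraries and 4.12 ± 1.20 CPM in WT libraries (SD, n = 4 each) gave a log2 fold change of −0.59 (SE 0.24, edgeR adjusted p = 0.731). In both Hmx2 and Hmx3, the pair of lowest values came from KO replicates 2 and 3. The ratio of Hmx2 to Hmx3 was 1.11 to 1.53 in KO libraries and 0.951 to 1.46 in WT libraries. A long gene on the other strand spans both, with 0 shared exonic bases.

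Hmx1 (ENSMUSG00000067438, chromosome 5, 35389108 to 35399730, plus strand) had the widest spread of the 9. It stood at 5.27, 2.92, 6.11 and 24.3 CPM in KO replicates 1 to 4, against 27.1, 10.9, 12.5 and 12.05 CPM in WT replicates 1 to 4. KO replicate 4 was high among KO libraries and WT replicate 1 high among WT libraries, while the other 3 KO libraries lay below all WT libraries. Means of 9.65 ± 9.86 CPM in KO libraries and 15.6 ± 7.68 CPM in WT libraries (SD, n = 4 each) gave a log2 fold change of −0.74 (SE 0.71, 95% interval −2.45 to 0.97, adjusted p = 0.940). It was −1.73 without KO replicate 4 (adjusted p = 0.490) and −0.30 without WT replicate 1 (adjusted p = 0.989). Without both it was −1.29 and passed (adjusted p = 0.0440). As these libraries had the highest Hmx1 value of their groups, that call is no independent support. The gene shares 175 exonic bases with the annotated gene 4930442P19Rik on the other strand, not analysed here.

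Some of the 12 listed lateral, splanchnic and heart mesoderm genes were highest in the same libraries as Hmx1, and others were not. Gata4, a factor of heart, gut and gonadal mesoderm, was at 6.12 CPM in KO replicate 4 against 0.0801 to 0.150 CPM in the other KO libraries, and at 0.713 CPM in WT replicate 1, the other WT libraries lying between 0.157 and 0.211 CPM. Wt1, a factor of kidney, gonad and mesothelium, was at 24.5 CPM in KO replicate 4 against 7.42 to 9.43 CPM in the other KO libraries, and lay between 5.11 and 9.76 CPM in WT libraries, WT replicate 1 being the highest. The heart markers Nkx2-5, Nppa and Myl7 were at or near 0, with at most 0.219 CPM in KO libraries and 0.312 CPM in WT libraries. Those highest values were of Myl7, in KO replicate 4 and WT replicate 1. Gata6, Tbx20 and Prrx1 were also highest in KO replicate 4 among KO libraries and in WT replicate 1 among WT libraries. Tbx18, Tbx5, Foxf1 and Osr1 were not highest in both of these libraries. Tbx5 was lowest of the KO libraries in KO replicate 4 (2.62 CPM, against 3.19 to 5.20 CPM in the other 3). Foxf1 (10.2 CPM) and Osr1 (27.9 CPM) were lowest of the WT libraries in WT replicate 1. In the other direction, Tbx5 (6.40 CPM) and Tbx18 (11.7 CPM) were highest of the WT libraries in WT replicate 1. Osr1 (38.5 CPM) was highest of the KO libraries in KO replicate 4. The list's summed level was 232 to 290 CPM in KO libraries and 210 to 262 CPM in WT libraries, most of it from Prrx1 (162 to 184 CPM in KO libraries and 142 to 188 CPM in WT libraries). Their part in the Hmx1 result was not tested.

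Posterior Hox genes, which mark lumbar and more caudal levels, also differed between libraries of 1 group. Hoxa10 was at 49.0, 67.0, 8.70 and 8.61 CPM in KO replicates 1 to 4 and at 17.4, 34.5, 35.6 and 66.1 CPM in WT replicates 1 to 4. KO replicates 3 and 4 and WT replicate 1 were therefore low, and Hoxc10 and Hoxd10 had the same 3 libraries low. Hmx1 was high in KO replicate 4 and WT replicate 1 but not in KO replicate 3. With the mean log2 CPM of Hoxa10, Hoxc10 and Hoxd10 as a covariate, the log2 fold change of Hmx1 was −1.32 (SE 0.54, edgeR adjusted p = 0.669), that of Hand1 1.10 and that of Hmx3 −0.68, and 0 of the 9 genes passed.

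**Figure D3:**
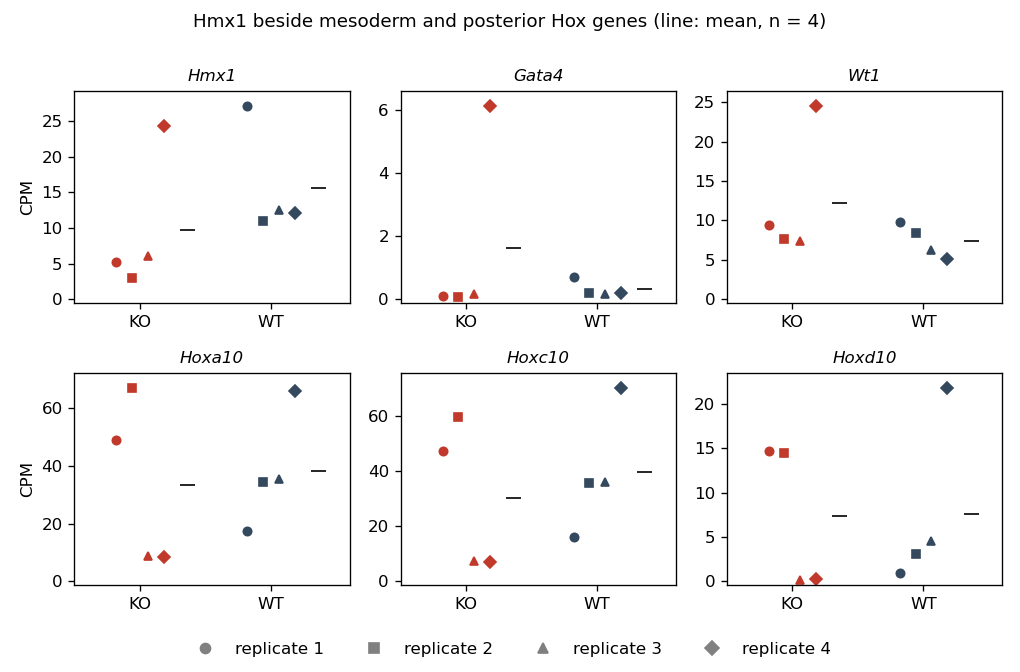
CPM of Hmx1 beside the mesoderm genes Gata4 and Wt1 and the posterior genes Hoxa10, Hoxc10 and Hoxd10 in each library (symbols by replicate number, line at the mean, n = 4 per group). KO replicate 4 is the highest KO library for Hmx1, Gata4 and Wt1, WT replicate 1 the highest WT library for the same 3 genes, and both are low for the Hox genes.

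**Figure D4:**
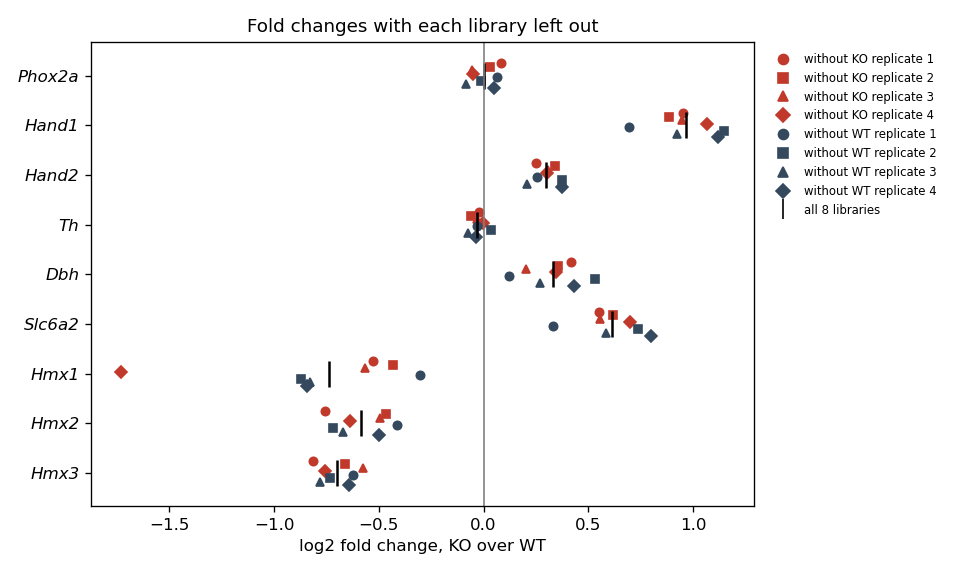
Log2 fold change (KO over WT) of the 9 genes when each library was left out in turn (coloured symbols) and with all 8 (black line). Values stay on their side of 0 for all genes except Phox2a and Th, with Hmx1 spread from −1.73 to −0.30.

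Per kilobase of annotated exon, Hmx1 was the most abundant of the 9 in WT libraries and Dbh in KO libraries. CPM per kilobase averaged 7.66 ± 1.45 for Dbh, 6.08 ± 6.21 for Hmx1 and 4.31 ± 0.211 for Th in KO libraries. In WT libraries it averaged 6.15 ± 2.26 for Dbh, 9.85 ± 4.84 for Hmx1 and 4.405 ± 0.438 for Th (SD, n = 4 each). In WT libraries the order went on with Phox2a (2.43), Hmx3 (2.23), Hand2 (2.12), Hmx2 (1.28), Hand1 (0.854) and Slc6a2 (0.133). Neighbours in that WT order had overlapping ranges, except that Th lay above Phox2a, Hand2 just above Hmx2 and Hand1 above Slc6a2 in every library. In KO libraries Hand2 (2.60) stood before Phox2a (2.44), and Hand1 (1.61) before Hmx3 (1.38) and Hmx2 (0.864).

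No other gene of the catecholamine pathway passed. Of 13 listed genes all were tested and 0 passed, with a median log2 fold change of 0.04. Ddc, which encodes the decarboxylase that makes dopamine, had the smallest p and stood at 10.4 ± 0.624 CPM in KO libraries and 9.11 ± 0.421 CPM in WT libraries (SD, n = 4 each), with a log2 fold change of 0.19. Every KO library was above every WT library for Ddc, as for 1.69% of all tested genes. Ddc did not pass over all genes (edgeR adjusted p = 0.731). Maob, a catecholamine-degrading oxidase, had a log2 fold change of 0.26, and Slc18a2, the vesicular monoamine transporter, −0.16.

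Of 15 further autonomic and sympathoadrenal genes, 1 passed as higher in KO, as did 0.056% of all tested genes. Gata2, a zinc-finger factor of sympathetic neurons and of the V2b class of spinal interneurons, rose to 16.5 ± 1.97 CPM in KO libraries, against 11.04 ± 0.927 CPM in WT libraries (SD, n = 4 each). Its log2 fold change was 0.58 (SE 0.09, edgeR adjusted p = 0.0294). It lost the call when any single library other than WT replicate 1 was left out. Its relative Gata3 did not pass, at a log2 fold change of 0.52 (edgeR adjusted p = 0.273). Every KO library was above every WT library for Gata3 (9.07 to 12.1 against 5.78 to 8.23 CPM), as for 1.69% of all tested genes. Over the 15 genes, DESeq2 called 2 higher and 1 lower, and limma-voom 1 and 0. Without a filter on low counts 1 was higher and 1 lower, and with the replicate block 0 and 0. In the spinal cord list 1 of 10 genes passed, namely Lhx3, a LIM homeobox factor of V2 interneurons and motor neurons (log2 fold change 0.56). Lhx3 lost the call without KO replicate 3, WT replicate 2 or WT replicate 4. Of those 10 genes, 4 had values above 0 and 6 below, with a median of −0.07. Any link between the Gata2 and Lhx3 differences was not tested. The other autonomic and sympathoadrenal genes did not pass, and the median of that list was −0.04, with 6 genes above 0 and 9 below. Among them were Chga (−0.04), Npy (0.18), Cartpt (0.02), Dlk1 (0.21), Chrna3 (−0.25), Chrna5 (−0.34) and Chrnb4 (−0.27). At an unadjusted edgeR p under 0.05, 3 of the 15 were higher and 3 lower, where 3.03% of all tested genes were higher and 3.32% lower. Insm1, a zinc-finger factor of newborn neurons and endocrine cells, had a log2 fold change of −0.33 (edgeR adjusted p = 0.135). Every KO library was below every WT library for Insm1, as for 2.45% of all tested genes.

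Genes of cholinergic and visceral motor neurons did not pass either, with 0 of 7 tested genes called and a median of −0.04. The log2 fold change of Isl1, a LIM homeobox factor of motor, sensory and sympathetic neurons, was −0.34. That of Nos1, the nitric oxide synthase of preganglionic neurons, was −0.42. Slc5a7, the choline transporter, had 0.16. In the list of dorsal spinal dI5 and anterolateral neurons, the spinal class that shares Phox2a, 1 of 7 tested genes fell (Pou4f1). Of all tested genes 0.243% fell, and the list's median was −0.12. Pou4f1 is a general sensory factor as well, and the count was 0 when any single library other than WT replicate 1 was left out, and 3 without that one. The other members did not pass. Among them Prrxl1 (also named Drgx) had every KO library below every WT library, as had 2.45% of all tested genes. This homeodomain factor of sensory and dorsal spinal neurons had a log2 fold change of −0.60 (edgeR adjusted p = 0.156). Tlx3, a homeodomain factor of the same neurons, was at −0.52 (edgeR adjusted p = 0.337). Lmx1b (−0.12), Tacr1 (−0.08), Lbx1 (−0.03) and Tac1 (0.23) lay nearer 0 or above it.

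In the somatosensory list 4 of 16 tested genes fell and 0 rose, where 0.243% of all tested genes fell and 0.056% rose. The list had a median of −0.45. It shares Pou4f1, Tlx3 and Prrxl1 with the dI5 list and Isl1 and Prph with the cholinergic list. Tlx2 fell to 9.22 ± 0.955 CPM in KO libraries, against 15.5 ± 1.66 CPM in WT libraries (SD, n = 4 each; log2 fold change −0.74). Pou4f1 and Eya2 fell by 0.52 and 0.39 on the log2 scale. Over the same libraries 0 of 9 visceral and autonomic genes passed, and whether the groups of genes differ from each other was not tested. Without WT replicate 1, 112 genes were lower over all, 8 of the 16 somatosensory genes among them and still 0 of the 9. The somatosensory count was 3 without KO replicate 1, and 2 without KO replicate 2, WT replicate 2 or WT replicate 3. It was 1 without KO replicate 3, KO replicate 4 or WT replicate 4, and 0 with the replicate block.

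Genes of other tissues were read beside the Hand1 and Hmx3 differences. The 12 genes of paraxial muscle and mesenchyme had a summed level of 2437 to 2610 CPM in KO libraries and 1768 to 2425 CPM in WT libraries. Every KO library was thus higher, narrowly at the closest (2437 against 2425 CPM), and WT replicate 1 was lowest. The largest part came from Col2a1 (1240 to 1466 CPM in KO libraries and 840 to 1360 CPM in WT libraries), whose groups overlapped. Of the 12, 0 passed and 12 had log2 fold changes above 0 (median 0.22), as had 48.4% of all tested genes. Hand1 was higher in the same KO libraries, and the part of this tissue in it was not tested. Pax2 and Pax8, markers of ventral and dorsal inhibitory interneurons as well as of the ear, had log2 fold changes of −0.39 and −0.53 without passing, beside those of Hmx2 and Hmx3. The list of the ear and other Hmx territories, which holds Hmx1, Hmx2 and Hmx3 themselves, had 0 of 6 tested genes called and a median of −0.56. The ear markers Otx2 and Oc90 were at or near 0, with at most 0.108 CPM in KO libraries and 0.118 CPM in WT libraries. In the ganglion glia and crest list Foxd3 fell (log2 fold change −0.57), as did 0.243% of all tested genes, and 7 of 8 genes did not pass. The Foxd3 call was lost when any single library other than WT replicate 1 was left out. In the list of endothelium and blood 0 of 8 passed, with a median of −0.04.

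**Figure D5:**
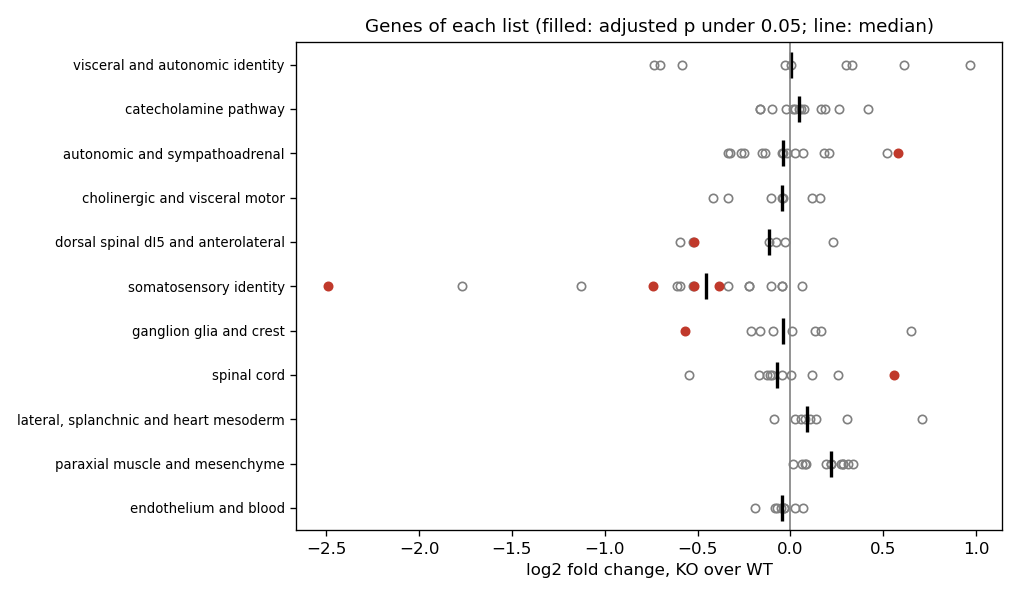
Log2 fold changes (KO over WT) of the tested genes in each list, filled where the edgeR adjusted p was under 0.05, with a line at the list's median. The 9 visceral and autonomic genes spread from −0.74 to 0.97 with none filled, while the somatosensory list has 4 filled genes below 0.

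The genes most like each of the 9 in their pattern over the 8 libraries were mostly outside the list. By Pearson r of log2 CPM, the closest to Phox2a were Il1rl2, Glul and Glrx (0.941 to 0.978), to Hand1 Diras2, Mettl22 and Mboat7 (0.965 to 0.969), and to Hand2 Slc2a4, March3 and Col17a1 (0.949 to 0.976). The closest to Th were Galnt11, Rab5b and Gm11110 (0.936 to 0.952), and to Dbh Dcdc2a, Ndufs5 and Rrad (0.974 to 0.990). For Slc6a2 they were Zap70, Hand1 and Dlx1 (0.959 to 0.972), Hand1 being the only one of the 9 to appear. For Hmx1 they were Grwd1, Wars and Bag1 (0.965 to 0.972), for Hmx2 Ccdc13, Fbxo16 and Pawr (0.966 to 0.971), and for Hmx3 Cntfr, Cisd1 and Epb41l4a (0.941 to 0.961). Each r was the highest of a search over all 16068 tested genes in 8 libraries that share depth and dissection differences, and describes these libraries only.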

How the data were processed

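RNA of dorsal root ganglia with spinal cord was sequenced in 4 KO and 4 WT libraries. Per the submitters' processing notes, the tools include featureCounts 1.4.6-p1, STAR 2.3.0e and SAMtools 0.1.18, with build mm10. DESeq2 1.8.2 and FastQC 0.10.1 are named too. The sources used here do not give strand use, annotation release or settings. The deposited files hold whole-number counts per gene, with 5 summary rows at 0 that were left out. Of 38355 Ensembl identifiers, 36602 matched GENCODE M21, which uses GRCm38 (mm10), and the 1753 others held 0.263% of counts.

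KO was compared with WT by edgeR 4.0.16 in R 4.3.3, using filterByExpr, TMM factors, a robust quasi-likelihood fit on group, and Benjamini-Hochberg adjustment over 16068 genes at 0.05. SE is the size of the log2 fold change over the square root of F. Library pairs within groups differed by more than sampling noise. CPM values of each gene were also compared by two-sided exact permutation. DESeq2 1.42.0, limma 3.58.1 (voom with quality weights), other scalings and filters, a replicate block and left-out libraries were alternatives. The genes named in the text were the 9, Prdm12, the called or else 3 lowest-p genes of each list, and the 3 genes most like each of the 9. The Hox genes, Gata4 and further list genes were picked with their values known. A few genes under this rule are not reported here. The 9 genes and the lists were chosen with earlier results of these data known. Slc18a3 was not analysed here, and Drgx was matched as Prrxl1. Figures used matplotlib 3.10.9.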

Additional observations from a re-analysis of the deposited data

Results flagged for a closer look

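Dixon's gap test (95% level, 4 samples) was run on 80 sets of 4 libraries and marked 11. A single such test marks about 1 in 20 by chance. The count cannot be set against that rate, as some genes were picked with their values known and the sets share the same 8 libraries. Among the 9 genes it marked Hmx1, at 24.3 CPM in KO replicate 4 and at 27.1 CPM in WT replicate 1, each far above the rest of its group. The same KO replicate 4 stood apart for Gata4 (6.12 CPM), Gata6 (6.78 CPM), Wt1 (24.5 CPM) and, on the low side, Pou4f1 (58.2 CPM). WT replicate 1 stood apart in total counts (67782435), Gata4 (0.713 CPM) and, on the low side, Foxd3 (22.3 CPM). Hoxd11 was far above its group in KO replicate 1 (17.5 CPM) and in WT replicate 4 (5.71 CPM).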

How the results depend on the processing

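The count of 0 higher and 0 lower among the 9 genes held under all 17 alternatives except that without both KO replicate 4 and WT replicate 1, chosen after seeing the data, where 1 was lower (Hmx1). Leaving out each library in turn gave 0 to 0 of the 9 in each direction, 3 to 21 genes higher and 12 to 112 lower over all genes, the upper ends without WT replicate 1. Over all genes, 19 were higher and 81 lower with DESeq2, 22 and 103 with limma-voom, and 21 and 91 without both libraries. With the replicate block, 2 were higher and 14 lower, and 0 of the 9 passed. Over all genes, same-numbered libraries did not deviate together (correlations −0.108, 0.282, −0.187 and −0.007), which cannot exclude a pairing seen in single genes. With the block the SE was smaller for Hmx2 (0.12 against 0.24), Hmx3 (0.13 against 0.18), Dbh, Hand1 and Th. It was larger for Phox2a, Hand2, Hmx1 and Slc6a2. The edgeR adjusted p with the block was 0.228 for Hmx2 and 0.151 for Hmx3. Phox2a and Th changed sign around 0. Phox2a was at −0.001 without a filter on low counts, −0.0062 with limma-voom, −0.0649 with the Hox covariate (added after seeing the data), and −0.0860 to 0.0839 with each library left out. Th was at 0.0007 with limma-voom and −0.0750 to 0.0354 with each library left out. Their CPM differences ranged over −0.2896 to 0.3225 for Phox2a (−0.1667 without KO replicate 3, −0.1556 without KO replicate 4) and −0.566 to 0.259 for Th with each library left out. The other 7 genes kept their direction under all 17. The exact permutation p of Hand1 was 0.0571 without KO replicate 2 or WT replicate 1, 3 or 4, and that of Hmx3 without KO replicate 2, 3 or 4. Of the lists, the somatosensory count ranged from 0 (replicate block) to 9 (limma-voom). Slc6a2 rests on 19 to 37 counts per library.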
